A study of Rattus norvegicus with 9 samples.

Results

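The ADAMTS genes encode secreted zinc proteases that cut proteins of the extracellular matrix, and the transcripts of 10 of them (Adamts1, Adamts2, Adamts4, Adamts5, Adamts6, Adamts9, Adamts12, Adamts14, Adamts15, and Adamts17) were measured in rat knee cartilage by RNA sequencing. They were taken by gene symbol from a table of 32043 genes, which lists 19 ADAMTS genes in all. The 9 libraries came from 3 groups of male Sprague–Dawley rats, bought at 8 weeks of age, with 3 libraries per group. In the control group the left knee joint capsule was opened and sutured. In the model group the same knee was destabilised by the modified Hulth method, a surgery that cuts out 2 of its ligaments (medial collateral and anterior cruciate) together with the inner meniscus, and daily forced activity during the first 4 weeks was added to induce knee osteoarthritis (KOA). The SYD group had the same operation and received an extract of Shengyu decoction (SYD), a mixture of medicinal plants, by gavage for 4 weeks. All tissue was taken 8 weeks after the operation. The SYD libraries are assigned by their title and description in the labels, although their library names start with CXTB, an abbreviation that the labels do not explain. The study also had an operated group that received a drug abbreviated CXB. Its methods name only control and model cartilage for sequencing, while its results also name an SYD group. No dose stands in the labels of the SYD libraries, and the study used 3 oral doses, of which its results name the highest for the sequenced group. An operated group that received gavage without extract was not analysed here, so the extract and the gavage cannot be told apart. The labels do not say that each library came from a separate animal, so the p-values measure the spread between these libraries, which may be partly technical.

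ADAMTS proteases are made as inactive precursors, and most are activated by furin-like convertases that remove a prodomain. ADAMTS4 and ADAMTS5 are the aggrecanases best known in arthritis. They cut aggrecan, the large proteoglycan that gives cartilage its resistance to compression, and TIMP3 is their main inhibitor. ADAMTS1, ADAMTS9, and ADAMTS15 also cut aggrecan or versican. ADAMTS2 and ADAMTS14 are procollagen N-proteinases, which trim fibrillar procollagens so that fibrils can form. ADAMTS12 cuts cartilage oligomeric matrix protein (COMP), ADAMTS6 is related to the fibrillin-binding ADAMTS10, and ADAMTS17 is tied to fibrillin microfibrils and eye and skeletal development.

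The values are FPKM, that is, reads scaled by gene length and by a library size that the authors set. Whole reads could be recovered from them, and every library held 14914121 to 19510537. Mitochondrial transcripts took 4.05% to 4.86% of the reads of the control libraries, 90.7%, 39.5%, and 81.3% of those of model libraries 1, 2, and 3, and 23.7%, 34.7%, and 72.7% of those of SYD libraries 1, 2, and 3. Model library 1 therefore held 1744769 reads of all other genes, against 14306782 to 17373645 in the control libraries. Of the 10 genes, 6 were listed at 0 in model library 1 and 3 in model library 3, and none was at 0 in the other 7 libraries. Only Adamts2 and Adamts9 had reads in every library. In model library 1, a level below 0.169 FPKM for Adamts1 or 0.221 FPKM for Adamts4 would be under 3 reads, which is the most that a count of 0 allows, for counting error only. The 15 chondrocyte markers were lower in the model libraries, where their summed level was 197 to 837 FPKM, than in control libraries 1 and 3, at 12140 and 6205 FPKM, while control library 2 was at 506 FPKM and the SYD libraries ranged from 183 to 1499 FPKM. Of these markers, 10 were called lower in the model group, where 11.2% of all genes tested were, and Matn1 was listed at 0 in all model and SYD libraries. In bulk tissue, fewer cells of a type and less RNA per cell cannot be told apart.

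In control cartilage, Adamts2 had the highest level of the 10 genes, at 10.9 ± 3.48 FPKM (SD, n = 3), and its lowest library was above the highest library of every other member. Adamts14, Adamts5, Adamts9, and Adamts1 followed, at means of 2.02, 1.92, 1.81, and 1.80 FPKM, and neighbours in this order overlapped between libraries. Adamts6, Adamts17, Adamts12, and Adamts4 had means of 0.767, 0.735, 0.505, and 0.489 FPKM and also overlapped. Adamts15 was lowest, at 0.132 ± 0.0683 FPKM (SD, n = 3), below every library of Adamts4. These levels are per length and can be compared between genes. In the SYD group, Adamts2 was again first at 21.2 ± 6.57 FPKM (SD, n = 3) and Adamts1 second at 10.5 ± 0.649 FPKM (SD, n = 3), with no overlap between Adamts2, Adamts1, and the next gene, Adamts4. From Adamts4 at 3.75 FPKM down to Adamts17 at 1.65 FPKM, neighbours in the SYD group overlapped. In the model group every neighbour in the order overlapped with the next, and the SD exceeded the mean for 6 of the 10 genes.

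**Figure D1:**
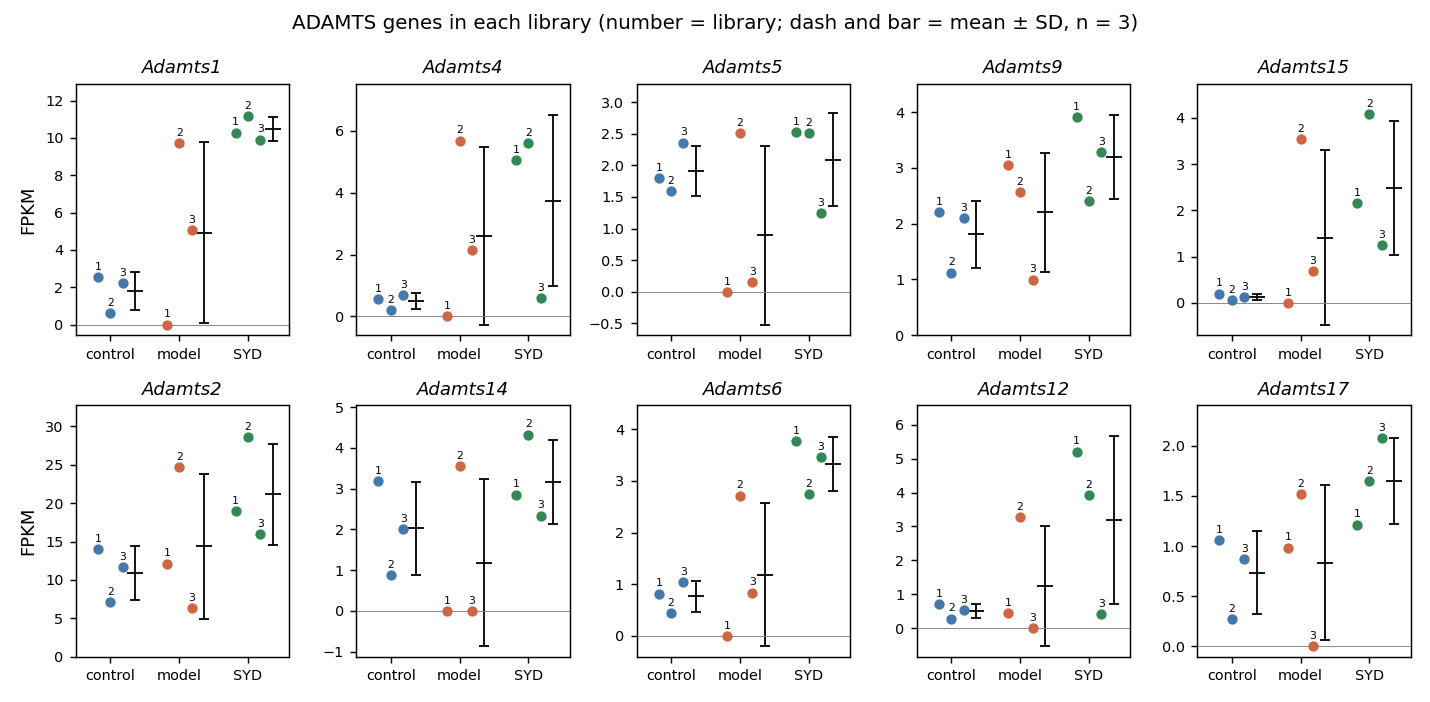
Level of each of the 10 ADAMTS genes in the 9 libraries, in FPKM on a linear axis that differs between panels, with each numbered point a library and the dash and bar beside it the mean ± SD of 3 libraries. Adamts1 and Adamts6 are higher in all 3 SYD libraries than in any control or model library. The model libraries spread from 0 up to 9.74 FPKM for Adamts1 and up to 2.71 FPKM for Adamts6. The lowest SYD libraries lie just above these values, at 9.91 and 2.75 FPKM.

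The comparison of the SYD group with the control group addressed how operated and treated cartilage differed from cartilage of the sham-operated joint. A gene was called differentially expressed (DEG) by the criteria of the study, namely a log2 fold change over 1 in either direction with a p-value under 0.05 before adjustment, here from limma on log2(FPKM + 1). Of the 10 genes, 4 were DEGs and higher in the SYD group (Adamts1, Adamts4, Adamts6, and Adamts15), and none was lower. Over all 13898 genes tested, 7.25% were DEGs with a higher level and 9.22% with a lower level. The adjusted p-value (Benjamini-Hochberg over all genes tested) was under 0.05 for 3 of the 10, all higher, against a background of 7.75%. This count was 0 with all 9 libraries in one fit, with the replicate number as a block, and without control library 3, where 0.396%, 0%, and 0.396% of all genes passed with a higher level. It was 1 without control library 1 or 2 (background 1.85% and 1.43%) and 5 without SYD library 3 (background 12.2%). For 6 of the 10, every SYD library was above every control library, whereas 20.3% of all genes showed this. All 10 fold changes were above 0, with a median of 1.07 on the log2 scale, and the median of all genes was 0. Rescaling to TPM, in which the mitochondrial reads count in full, moved the median of all genes to −1.31, turned 5 members below 0 (Adamts2, Adamts5, Adamts9, Adamts14, and Adamts17), and ended the calls of Adamts1, Adamts4, and Adamts6, at log2 fold changes of 1.11, 1.07, and 0.55, while Adamts15 remained a DEG at 1.71. With TPM, 0.921% of all genes were DEGs with a higher level. After rescaling to the non-mitochondrial reads instead, the median of all genes was −0.01, the same number of members were DEGs (4) and passed the adjusted threshold (3), where 9.40% and 7.44% of all genes did so with a higher level, and the log2 fold changes of Adamts1, Adamts4, Adamts6, and Adamts15 were 2.40, 1.83, 1.65, and 2.22. All 10 genes passed the filter on low values (a mean of at least 0.5 FPKM over the 9 libraries). Adamts4 and Adamts15 passed it only through the operated groups, since their control means were under 0.5 FPKM.

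Adamts1 belongs to the aggrecanase branch of the family. It had 2.56, 0.630, and 2.22 FPKM in the control group and 10.3, 11.2, and 9.91 FPKM in the SYD group. The groups did not overlap, and the SYD libraries lay close together. The log2 fold change was 2.11 (SE 0.323, adjusted p = 0.0149, limma with Benjamini-Hochberg adjustment). Without control library 3 the adjusted p from limma was 0.0639, and without any other single library it stayed between 0.0240 and 0.0443. Adamts15, the least abundant member in control cartilage, was at 0.203, 0.0672, and 0.125 FPKM there, which is 37, 15, and 30 reads. In the SYD libraries it was at 2.15, 4.08, and 1.25 FPKM. Its groups did not overlap, and the log2 fold change of 1.55 (SE 0.308, adjusted p = 0.0266, limma) understates the ratio of such low levels because 1 FPKM was added before taking logs. With 0.1 FPKM added instead, the log2 fold change of Adamts15 was 3.37 and that of Adamts1 was 2.68, so the order of the pair depends on this choice. The adjusted p of Adamts15 from limma rose to 0.0784, 0.101, 0.106, and 0.0601 without control library 1, 2, or 3 or SYD library 1, although its fold change met the DEG criteria in each of these fits.

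Adamts4, the first of the main aggrecanase genes, was at 0.562, 0.204, and 0.700 FPKM in the control libraries. In the SYD group it was at 5.04 and 5.61 FPKM in libraries 1 and 2 and at 0.582 FPKM in library 3, the SYD library with the largest mitochondrial share. The third SYD library thus lay within the control range. Its log2 fold change of 1.44 (SE 0.580, adjusted p = 0.143, limma) met the DEG criteria but not the adjusted threshold, and its unadjusted value of 0.0490 lay just under the limit. Without SYD library 3 the log2 fold change was 2.10 and the adjusted p 0.0111 in limma, and without any other single library the DEG call was lost, with log2 fold changes of 1.07 to 1.54. Adamts5, the other main aggrecanase gene, had 1.80, 1.59, and 2.36 FPKM in the control group and 2.52, 2.50, and 1.24 FPKM in the SYD group. The groups overlapped, and the log2 fold change was 0.06 with a 95% interval from −0.55 to 0.67 (adjusted p = 0.884, limma). Adamts9, a versican and aggrecan protease, had 2.21, 1.12, and 2.10 FPKM in the control group and 3.91, 2.41, and 3.29 FPKM in the SYD group. These groups did not overlap, and its log2 fold change of 0.59 did not meet the DEG criteria (adjusted p = 0.157, limma).

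Among the other members, Adamts6 had 0.816, 0.445, and 1.04 FPKM in the control group and 3.77, 2.75, and 3.47 FPKM in the SYD group. The groups were far apart, and the log2 fold change was 1.30 (SE 0.204, adjusted p = 0.0159, limma). Leaving out control library 1, 2, or 3 raised its adjusted p in limma to 0.0599, 0.0605, and 0.0670, with log2 fold changes of 1.33, 1.16, and 1.41. The procollagen proteinase gene Adamts2 had 14.0, 7.15, and 11.6 FPKM in the control group and 19.0, 28.6, and 16.0 FPKM in the SYD group. All its SYD libraries were higher, with a log2 fold change of 0.90, under the fold criterion (adjusted p = 0.101, limma), and it met the DEG criteria only without control library 1 or SYD library 3, with log2 fold changes of 1.09 and 1.07. Its relative Adamts14 overlapped between the groups, at 3.18, 0.880, and 2.01 FPKM in control and 2.85, 4.32, and 2.34 FPKM in SYD, with a log2 fold change of 0.51 (adjusted p = 0.351, limma). Adamts17 had 1.06, 0.274, and 0.867 FPKM in the control group and 1.21, 1.65, and 2.08 FPKM in the SYD group. Every SYD library of Adamts17 was higher, with a log2 fold change of 0.63 (adjusted p = 0.131, limma). Adamts12 had the same split as Adamts4. It was at 5.21 and 3.92 FPKM in SYD libraries 1 and 2 and at 0.426 FPKM in SYD library 3, against 0.707, 0.285, and 0.524 FPKM in the control libraries. Its log2 fold change of 1.23 was not called (adjusted p = 0.184, limma), and without SYD library 3 it was 1.89 (adjusted p = 0.0124, limma).

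**Figure D2:**
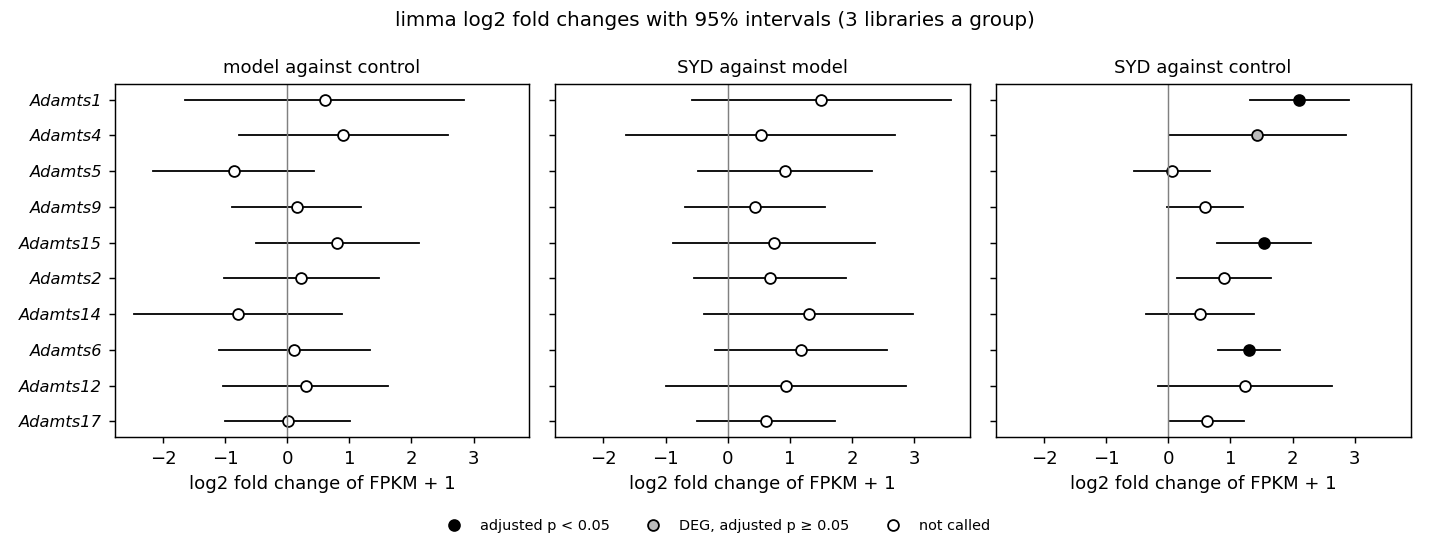
Log2 fold change of FPKM + 1 for each of the 10 genes in the 3 comparisons, with 95% intervals from limma (3 libraries per group). Adamts1, Adamts6, and Adamts15 (black) passed the adjusted threshold in SYD against control, Adamts4 (grey) was a DEG there without passing it, and every interval in the comparisons with the model group includes 0.

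The sequence upstream of these genes is shown for Adamts1 and Adamts6, which passed the adjusted threshold, for Adamts4, and for Adamts2, the most abundant member. A RefSeq promoter (build GRCr8) was matched for 8 of the 10 genes, and Adamts5 and Adamts15 were without an entry. Each run is the 250 bases before the annotated start, read 5′ to 3′ on the strand of the gene. Capitals mark matches on either strand to 5 motifs. The TATA box was searched as TATAAA. The GC box was searched as GGGCGG. The CCAAT box was searched by the letters of its name. An AP-1 site was searched as TGANTCA. A RUNX site was searched as TGTGGT. These positions are in GRCr8 and are not on the scale of the gene positions in the deposited table.
Adamts1, chr11:38427385-38427634, minus strand: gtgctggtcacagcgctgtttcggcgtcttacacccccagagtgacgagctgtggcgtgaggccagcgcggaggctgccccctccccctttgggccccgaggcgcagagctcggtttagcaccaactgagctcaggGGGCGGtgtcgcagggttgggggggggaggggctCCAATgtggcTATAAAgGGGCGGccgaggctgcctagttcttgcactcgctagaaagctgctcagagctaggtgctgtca
Adamts6, chr2:37155038-37155287, plus strand: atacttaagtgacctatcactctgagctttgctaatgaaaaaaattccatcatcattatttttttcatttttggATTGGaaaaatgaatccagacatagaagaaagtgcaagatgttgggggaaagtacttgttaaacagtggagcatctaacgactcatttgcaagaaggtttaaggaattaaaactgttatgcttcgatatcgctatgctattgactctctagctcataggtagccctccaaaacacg
Adamts4, chr13:86202761-86203010, plus strand: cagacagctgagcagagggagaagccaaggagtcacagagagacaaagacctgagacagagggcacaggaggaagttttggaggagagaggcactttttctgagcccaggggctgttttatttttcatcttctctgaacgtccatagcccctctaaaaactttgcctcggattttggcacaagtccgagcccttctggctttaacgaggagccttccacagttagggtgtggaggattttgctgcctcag
Adamts2, chr10:35421780-35422029, plus strand: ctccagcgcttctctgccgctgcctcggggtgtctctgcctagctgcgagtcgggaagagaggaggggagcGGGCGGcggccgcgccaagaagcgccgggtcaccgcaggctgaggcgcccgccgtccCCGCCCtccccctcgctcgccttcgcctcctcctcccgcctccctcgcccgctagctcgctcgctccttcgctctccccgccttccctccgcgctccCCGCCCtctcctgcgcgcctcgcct
The Adamts1 run holds a TATA box 70 bases before the start, GC boxes at 114 and 63 bases, and a CCAAT box at 80 bases. The Adamts6 run holds a CCAAT box on the other strand 176 bases before the start, and the Adamts2 run holds GC boxes at 179, 122, and 25 bases, the last 2 on the other strand. No matches overlapped in these runs. The Adamts4 run held no match to the 5 motifs. Among all 33469 promoters of the same length, 12.9% hold a TATA box, 30.5% a GC box, 34% a CCAAT box, 6.34% an AP-1 site, and 14.5% a RUNX site by these letters. None of the 8 runs held a match to the AP-1 or RUNX letters. GC content differed widely, at 65.2% for Adamts1, 36% for Adamts6, 51.2% for Adamts4, and 75.6% for Adamts2. These matches describe letters in a window and say nothing of factor binding.

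Adamts1 and Adamts5 are neighbours on chromosome 11. In the deposited table, whose rat genome build is not named, Adamts1 spans 24931761 to 24941103 and Adamts5 spans 25000637 to 25047205, both on the minus strand, with 59533 bases between them. The log2 fold change of Adamts1 in SYD against control was 2.11 and that of Adamts5 was 0.06, with 95% intervals (1.31 to 2.90 and −0.55 to 0.67) that do not meet. The difference itself was not tested. Adamts6 (chromosome 2, 35421510 to 35633298) and Adamts12 (chromosome 2, 60032873 to 60327629), both on the plus strand, also share a chromosome. The table places Adamts4 on chromosome 13, Adamts9 on 4, Adamts15 on 8, Adamts2 on 10, Adamts14 on 20, and Adamts17 on 1.

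The comparison of the model group with the control group addressed the operation together with the forced activity, and their effects cannot be told apart here. None of the 10 genes was a DEG, none passed the adjusted threshold in limma, none was under 0.05 before adjustment, and none had groups that did not overlap. Over all genes tested, 14.7% were DEGs in either direction, 2.59% passed the adjusted threshold, 19.2% had an unadjusted p-value under 0.05, and 28.7% had groups that did not overlap. The median log2 fold change of the 10 genes was 0.19, and that of all genes was −0.23. The control libraries are shared with the previous comparison.

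For most members the model libraries fell on both sides of the control range. Adamts1 was listed at 0 in model library 1 and was at 9.74 and 5.06 FPKM in libraries 2 and 3, with a log2 fold change of 0.60 (adjusted p = 0.760, limma). Adamts4 was at 0, 5.69, and 2.14 FPKM, and its log2 fold change was 0.90 (adjusted p = 0.533, limma). Adamts15 was at 0, 3.55, and 0.694 FPKM, with a log2 fold change of 0.81 (adjusted p = 0.475, limma). For these 3 genes, libraries 2 and 3 were above all control libraries and library 1 was listed at 0. Without model library 1 the log2 fold changes of Adamts1, Adamts4, and Adamts15 were 1.61, 1.64, and 1.30 and all 3 met the DEG criteria, with adjusted p-values from limma of 0.118, 0.0811, and 0.146. In that fit 19.5% of all genes were DEGs, 7.14% with a higher level.

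Adamts5 and Adamts14 had the opposite sign. Adamts5 was at 0, 2.51, and 0.156 FPKM in the model libraries, and the 0.156 FPKM of library 3 is 4 reads. Its level was below the control range in libraries 1 and 3 and above it in library 2, and the log2 fold change was −0.86 with a 95% interval from −2.15 to 0.43 (adjusted p = 0.438, limma). Adamts14 was listed at 0 in model libraries 1 and 3 and was at 3.56 FPKM in library 2, with a log2 fold change of −0.79 (adjusted p = 0.582, limma). Model library 2 had the smallest mitochondrial share of the model group, at 39.5%, and the part of that share in these levels was not tested. Without model library 2 the log2 fold changes of Adamts5 and Adamts14 were −1.43 and −1.52 and both met the DEG criteria, with adjusted p-values from limma of 0.0147 and 0.0581. In that fit 24.1% of all genes were DEGs, 18.4% with a lower level, and 18.9% passed the adjusted threshold.

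The remaining 5 members had small fold changes that were not called. Adamts2 was at 12.1, 24.6, and 6.29 FPKM in the model libraries (log2 fold change 0.22). Adamts9 was at 3.05, 2.56, and 0.997 FPKM (log2 fold change 0.15), and it was the only member highest in model library 1 within that group. Adamts6 was at 0, 2.71, and 0.837 FPKM (log2 fold change 0.12). In each of these genes the 3 model libraries overlapped with the control libraries. Adamts12 was at 0.449, 3.27, and 0 FPKM (log2 fold change 0.30). Adamts17 was at 0.985, 1.52, and 0 FPKM (log2 fold change 0.01). The adjusted p-values of these 5 genes in limma were 0.802 to 0.996.

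The comparison of the SYD group with the model group addressed the effect of the extract in the operated joint. None of the 10 genes was a DEG and none had an unadjusted p-value under 0.05 in limma. Over all genes tested, 4.15% were DEGs, 5.26% had an unadjusted p-value under 0.05, and 0% passed the adjusted threshold in limma, the smallest adjusted value being 0.723. All 10 log2 fold changes were above 0, from 0.44 for Adamts9 to 1.51 for Adamts1, with a median of 0.83 against 0.22 for all genes. Adamts1 and Adamts6 were higher in every SYD library than in any model library, 2 of 10 genes against a background of 7.89% in this direction. The margins were narrow, with model library 2 at 9.74 FPKM against a lowest SYD library of 9.91 FPKM for Adamts1. For Adamts6 these values were 2.71 and 2.75 FPKM, and both genes were listed at 0 in model library 1. For Adamts1 the log2 fold change was 1.51 (SE 0.868, 95% interval −0.58 to 3.60) and for Adamts6 it was 1.18 (SE 0.577, 95% interval −0.20 to 2.57). Adamts14 and Adamts5, which were at or near 0 in model libraries 1 and 3, had log2 fold changes of 1.30 and 0.92. For Adamts4 it was 0.53 with a 95% interval from −1.64 to 2.70, so neither a large rise nor a large fall can be told from no difference with these libraries. Model library 2 lay within the range of the SYD libraries for 7 of the 10 genes. Without it, 6 of the 10 genes met the DEG criteria (Adamts1 2.22, Adamts2 1.14, Adamts5 1.49, Adamts6 1.67, Adamts14 2.03, and Adamts15 1.34 on the log2 scale), none with an adjusted p under 0.05 in limma. Leaving it out raised the calls of all genes too, from 4.15% to 18%, of which 13.8% had a higher level.

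The make-up of the message of the 10 genes was then compared as shares of their summed FPKM within each library. These shares do not depend on how libraries were scaled to each other, and other ADAMTS genes, such as Adamts10, are not in the sum. The summed level was 27.1, 12.6, and 23.6 FPKM in control, 16.6, 59.7, and 16.2 FPKM in model, and 55.9, 67.0, and 40.5 FPKM in SYD libraries. Every SYD library was above every control library in this sum. Adamts2 held the largest share in all 9 libraries. Its share was 51.7%, 56.5%, and 49.3% in control, 73.0%, 41.2%, and 38.9% in model, and 33.9%, 42.6%, and 39.4% in SYD libraries. The second place was held by Adamts14 or Adamts5 in the control libraries, by Adamts9 in model library 1, and by Adamts1 in all other operated libraries. With 3 libraries against 3, an exact permutation test cannot give a two-sided p below 0.1.

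Between SYD and control, 6 of the 10 shares reached that limit, which means only that their groups did not overlap. The shares are parts of 1 whole in each library, so larger shares of some genes make others smaller. These 6 are therefore not separate results. The share of Adamts1 was 19.8% ± 4.08 (SD, n = 3) in the SYD group and 7.94% ± 2.56 (SD, n = 3) in the control group, an exact permutation p of 0.1. The share of Adamts15 was 4.34% ± 1.57 (SD, n = 3) against 0.605% ± 0.126 (SD, n = 3), with the same exact p of 0.1. Shares of the other 4 were smaller in the SYD group, each with an exact permutation p of 0.1. Adamts2 went from 52.5% ± 3.66 to 38.6% ± 4.40, Adamts5 from 9.75% ± 2.99 to 3.77% ± 0.726, Adamts14 from 9.07% ± 2.42 to 5.77% ± 0.677, and Adamts9 from 8.63% ± 0.422 to 6.23% ± 2.35 (SD, n = 3 each, control to SYD). For Adamts9 the groups were barely apart, at 8.11% in SYD library 3 and 8.15% in control library 1. A share can shrink while the level does not, as for Adamts2 and Adamts9, whose FPKM values were higher in all SYD libraries. The FPKM values of Adamts5 and Adamts14 overlapped between the groups, with log2 fold changes of 0.06 and 0.51. The shares of Adamts4, Adamts6, Adamts12, and Adamts17 had exact permutation p-values of 0.2 to 1. Between model and control, Adamts5 (1.72% against 9.75%) and Adamts14 (1.98% against 9.07%) had smaller shares in every model library, with exact permutation p-values of 0.1, and the other 8 had p-values of 0.4 to 1. None of the shares differed between SYD and model at this limit, with exact p-values of 0.3 to 1. The 30 share tests were not adjusted, because no p-value could pass the threshold.

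**Figure D3:**
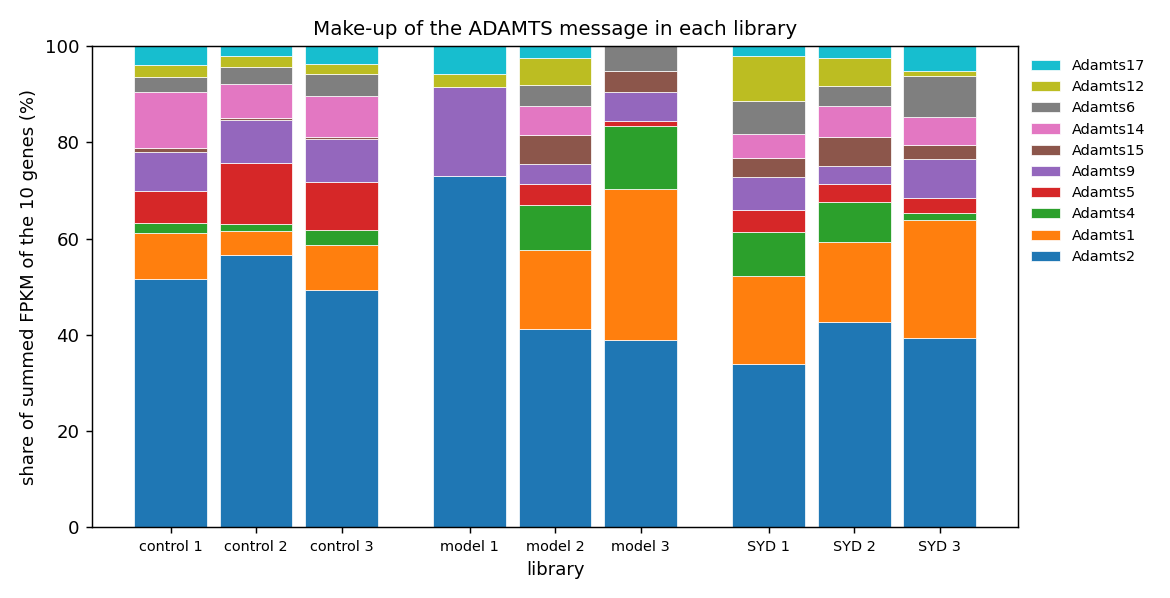
Share of each ADAMTS gene in the summed FPKM of the 10 genes, in percent, with 1 bar per library. Adamts2 is the largest part of every bar, Adamts1 is wider in the SYD bars (16.7% to 24.4%) than in the control bars (4.98% to 9.44%), and model library 1 holds only Adamts2, Adamts9, Adamts12, and Adamts17.

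The balance of the 2 main aggrecanase genes was given as log2(FPKM + 1) of Adamts5 minus that of Adamts4 in the same library. It was 0.84, 1.11, and 0.98 in the control libraries, so Adamts5 was above Adamts4 in each. In the model libraries it was 0, −0.93, and −1.44, where the 0 of model library 1 is set by the added 1 FPKM, since that library has no reads of either gene, and is no measurement. In the SYD libraries it was −0.78, −0.92, and 0.50. Adamts4 thus exceeded Adamts5 in 4 of the 5 operated libraries with reads of either gene and in none of the control libraries. The difference between SYD and control was −1.37, with an exact permutation p of 0.1, the smallest possible, and −2.25 with 0.1 FPKM added in place of 1. Without model library 1 the difference was −2.16 between model and control and 0.79 between SYD and model, each with an exact permutation p of 0.2, the smallest that 2 libraries against 3 allow. With that library counted at 0 the differences were −1.77 and 0.39 (exact permutation p of 0.1 and 0.5), and −3.30 and 1.05 with 0.1 FPKM added. In all 3 control libraries the value was above that of the 5 operated libraries with reads.

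**Figure D4:**
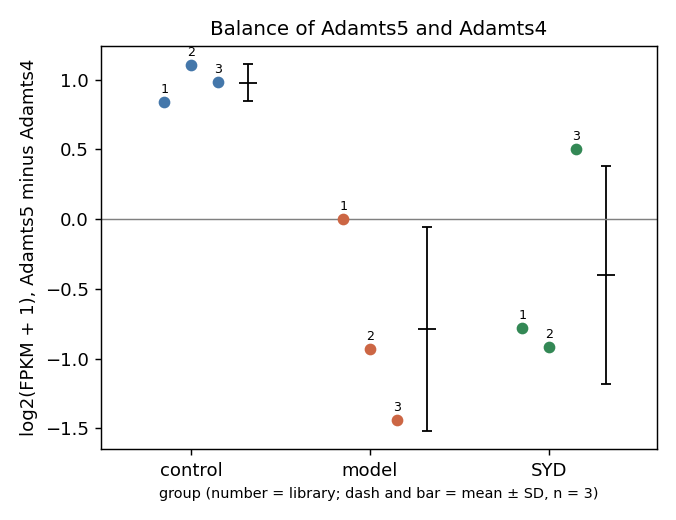
Log2(FPKM + 1) of Adamts5 minus that of Adamts4 in each library, with numbered points for libraries and the dash and bar for the mean ± SD of 3 libraries. The control libraries sit between 0.84 and 1.11, above the 5 operated libraries with reads of either gene, of which 4 are below 0, and the point of model library 1 at 0 stands for no reads of either gene.

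The rest of the family was read for comparison. Of the other 9 ADAMTS genes in the table, 5 passed the filter. Adamts10, a fibrillin-binding relative of Adamts6, had 7.68, 7.54, and 9.07 FPKM in control, 16.8, 22.1, and 6.44 FPKM in model, and 59.0, 27.8, and 28.8 FPKM in SYD libraries. Its mean over the 9 libraries was 20.6 FPKM, above the 15.5 FPKM of Adamts2. In the control group alone its mean was lower than that of Adamts2, at 8.10 against 10.9 FPKM. The log2 fold change of Adamts10 in SYD against control was 2.04 (SE 0.309, adjusted p = 0.0146, limma). It was also a DEG in SYD against model, with a log2 fold change of 1.36 (adjusted p = 0.723, limma). Adamts7, a COMP protease like Adamts12, and Adamts13, which cuts von Willebrand factor, were not called in any comparison, with log2 fold changes in SYD against control of 0.39 and −0.43. Adamts18 and Adamts3, named after their values were seen, complete the 5 and were not called either. Adamts18 was higher in every SYD library than in any control or model library, with log2 fold changes of 0.78 and 1.18. For Adamts3 the log2 fold change in SYD against control was −0.84. Of the 7 ADAMTS-like and related genes, whose products resemble the non-catalytic part of the proteases, 3 passed the filter and 2 were DEGs with a higher level in SYD against control, as 7.25% of all genes tested were. Adamtsl5 had a log2 fold change of 1.45 (adjusted p = 0.0256, limma), Adamtsl4 one of 1.49 (adjusted p = 0.103, limma), and Adamtsl2 was not called (0.36).

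Of 18 tested genes for substrates of the family, the log2 fold change was above 0 for 6 in model against control, 16 in SYD against model, and 9 in SYD against control. The median log2 fold changes of these genes were −0.66, 0.77, and 0.29, and those of all genes tested, −0.23, 0.22, and 0, lay on the same side of 0 in the comparisons with the model group. Only 2 were DEGs with a lower level in the model group than in the control group, a share near the 11.2% of all genes, Col2a1 (−4.40 on the log2 scale) and Matn3 (−5.07), which encode cartilage collagen and a cartilage matrilin. Neither passed the adjusted threshold in limma, at adjusted p-values of 0.193 and 0.0937. In SYD against control 2 were DEGs with a higher level (7.25% of all genes were), Dcn (decorin, log2 fold change 1.96, adjusted p = 0.0183, limma) and Col3a1 (3.47, adjusted p = 0.133, limma), and in SYD against model none was a DEG. Matn3 and Col3a1 are named because they are the remaining calls of these counts, and Acan because it encodes aggrecan, a choice made after their values were seen. Acan had 305, 10.4, and 143 FPKM in control, 34.8, 10.7, and 0.629 FPKM in model, and 77.8, 43.2, and 3.12 FPKM in SYD libraries. Its groups overlapped, and control library 2 was as low as model library 2. The procollagen genes Col1a1 and Col1a2, substrates of ADAMTS2 and ADAMTS14 and the most abundant of the list by the mean over all 9 libraries (3667 and 2053 FPKM, with Col2a1 at 1658 FPKM), had log2 fold changes of 0.83 and 0.84 in SYD against control and were not called. In the control group alone Col2a1 had the highest mean of the list, at 4380 FPKM.

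Of 16 genes for inhibitors, activators, and clearance of ADAMTS proteases, all tested, 5 were DEGs with a higher level in SYD against control (Timp1, Timp2, Timp4, Sdc1, and Lrp4), 1 in model against control (Timp4, log2 fold change 1.06), and 3 in SYD against model. Over all genes tested, 7.25%, 3.55%, and 3.62% were DEGs with a higher level in these 3 comparisons. In SYD against control, 3 passed the adjusted threshold in limma with a higher level, as 7.75% of all genes did. Timp1, an inhibitor of matrix metalloproteinases, had a log2 fold change of 2.14 (adjusted p = 0.0341), the cell surface proteoglycan gene Sdc1 one of 1.28 (adjusted p = 0.0313), and the convertase gene Pcsk7 one of 0.62 (adjusted p = 0.0289). Timp3, the main aggrecanase inhibitor, had 32.8, 9.80, and 22.3 FPKM in control, 4.09, 18.9, and 22.7 FPKM in model, and 53.7, 38.3, and 10.1 FPKM in SYD libraries. Its groups overlapped in each comparison, and its log2 fold changes were −0.61, 1.10, and 0.50 in model against control, SYD against model, and SYD against control, none called. The 3 DEGs of SYD against model were Sdc4 (2.32), Lrp1 (1.40), an endocytic receptor that clears ADAMTS4 and ADAMTS5, and Reck (1.45), each with an adjusted p of 0.723 in limma. Timp2, Timp4, Lrp1, Lrp4, and Reck are named to account for these counts, after their values were seen.

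Of 16 tested genes for inducers and transcription factors, 5 passed the adjusted threshold in limma with a higher level in SYD against control and 1 with a lower level, against 7.75% and 9.57% of all genes. In model against control 2 were DEGs with a higher level (Cebpb and Epas1) and 1 with a lower level (Syk), and in SYD against model 2 with a higher level (Cebpb and Il1b), where 3.55%, 11.2%, and 3.62% of all genes were. Cebpb, a transcription factor of the inflammatory response, had 7.34, 9.29, and 9.67 FPKM in control, 19.3, 16.5, and 23.2 FPKM in model, and 74.0, 27.4, and 42.0 FPKM in SYD libraries. The 3 groups did not overlap, and its log2 fold changes were 1.08, 1.14, and 2.21 in model against control, SYD against model, and SYD against control, with adjusted p-values from limma of 0.0817, 0.723, and 0.0170. Osmr, the oncostatin M receptor gene, had a log2 fold change of 1.89 in SYD against control (adjusted p = 0.00814, limma), and Epas1, which encodes hypoxia-inducible factor 2α, one of 1.20 (adjusted p = 0.0466, limma). The other 2, named after their values were seen, were Runx2 (1.41), a transcription factor gene of bone and hypertrophic cartilage, and Tnfrsf1a (0.59), a receptor gene for tumor necrosis factor. Syk, a kinase gene of blood cells, was lower in SYD than in control by a log2 fold change of −2.09 (adjusted p = 0.00571, limma). Tgfb1 had log2 fold changes of −0.01 to 0.10 in the 3 comparisons. The interleukin 1β gene Il1b, named after its values were seen, had 0.624, 1.09, and 1.02 FPKM in control, 0, 0.790, and 0 FPKM in model, and 1.87, 0.961, and 2.51 FPKM in SYD libraries. Its log2 fold change in SYD against model was 1.16 (adjusted p = 0.723, limma), and those groups did not overlap. The cytokine gene Il6 was under the filter.

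Markers of other cells of the joint were also read, and whether they follow the ADAMTS genes from library to library was not tested. In SYD against control, 6 of 8 mural cell markers, 5 of 8 endothelial, 5 of 9 synovial fibroblast, and 3 of 8 osteoblast markers were DEGs with a higher level, and no marker of these lists was a DEG with a lower level. Over all genes tested, 7.25% were DEGs with a higher level and 9.22% with a lower level. The summed level of the mural markers ranged from 30.2 to 85.7 FPKM in control, 26.8 to 476 FPKM in model, and 183 to 611 FPKM in SYD libraries. For the endothelial markers these ranges were 42.1 to 55.1, 27.1 to 235, and 110 to 147 FPKM, for the synovial fibroblast markers 52.1 to 130, 76.2 to 273, and 151 to 303 FPKM, and for the osteoblast markers 1281 to 2034, 956 to 4942, and 4363 to 6670 FPKM. None of the defining markers of these 4 lists was at 0 in all libraries of a group. B cell markers, a sign of marrow, went from 266 to 353 FPKM in the control libraries to 8.83 to 41.2 FPKM in the SYD libraries, and 6 of 7 were DEGs with a lower level. The erythroid (4 of 6) and neutrophil (5 of 7) markers tested were DEGs with a lower level, and the macrophage (0 of 8), skeletal muscle (0 of 6), and adipocyte (1 of 5, higher) lists had few calls. The part of these cell types in the levels of Adamts1, Adamts4, Adamts6, and Adamts15 was not tested. No photoreceptor marker passed the filter, although the extraction protocol in the labels mentions retina.

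The genes whose pattern over the 9 libraries was most like that of Adamts4 were Emp1, Ifnlr1, and Dkk3, with root mean square differences of 0.326, 0.327, and 0.329 between centred log2(FPKM + 1) values, among 10201 genes with an SD of at least 0.5. The nearest member was Adamts15, in place 15 at 0.424, followed by Adamts12 in place 212. For Adamts5 the nearest genes were Chst7, Amacr, and Zfp292, at 0.0987, 0.118, and 0.132, and the nearest member was Adamts14 in place 512 at 0.371. Adamts4 and Adamts5 differed from each other by 0.912, with Adamts4 in place 5623 from Adamts5. All 9 libraries share the differences in mitochondrial share given above, so likeness here is a description of these libraries.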

How the data were processed

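RNA of knee cartilage was measured in 9 libraries of 3 groups, grouped by the labels. The authors deposited 1 table of FPKM values, which also gives the identifier, position, and length of each gene. The submitters' processing notes name HISAT2 2.0.5 and the human build hg38, although the gene identifiers are of rat. The counter and annotation release are not given in the sources used here. In each library 100% of FPKM values came out as whole reads after scaling by length (tolerance 0.1), which gave the depth, and the authors' library sizes differed from the read totals. Log2(FPKM + 1) was fitted with limma 3.58.1 (R 4.3.3; eBayes with trend, two-sided) on the 6 libraries compared, over genes whose mean reached 0.5 FPKM. Single values were tested with exact permutation tests in SciPy 1.17.1. The fit was checked on simulated data. All 10 genes are named; of other lists, up to 3 genes past the adjusted threshold and the 3 most abundant, and the 3 genes nearest Adamts4 and Adamts5. The 10 genes and the lists were chosen with earlier results of these data known. Alternatives changed the pseudocount, filter, scaling, and model, and left out each library. Chromosome and promoter data came from the table and from RefSeq (GRCr8).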

Additional observations from a re-analysis of the deposited data

How the results depend on the processing

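Levels rest on few reads in model libraries 1 and 3, and the scaling of libraries that differ in mitochondrial share shifts all genes together. Rescaling to TPM moved the median log2 fold change of all genes from −0.23 to −2.60 in model against control, from 0.22 to 1.22 in SYD against model, and from 0 to −1.31 in SYD against control. The cause of each change below was not tested. Of 510 refitted fold changes of single members, 433 kept their direction and side of the DEG criteria, 13 lost the call, 26 gained it, and 38 turned sign (29 in model against control, 1 in SYD against model, and 8 in SYD against control).

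In model against control, 3 members were DEGs with TPM (75.2% of all genes), 3 with quantile normalization (14.7%), and 2 with voom on the recovered reads (23.6%), and 2 had an adjusted p under 0.05 with TPM in limma (69.6% of all genes). Leaving out single libraries gave 0 to 3 DEGs (9.42% to 24.1% of all genes) and 0 to 1 with an adjusted p under 0.05 (0% to 18.9% of all genes). In SYD against model, 1 member was a DEG with all 9 libraries in one fit (8.78% of all genes) and 1 with voom (7.76%), and leaving out single libraries gave 0 to 6 (2.27% to 18.0% of all genes). The difference in the balance of Adamts5 and Adamts4 between SYD and model ranged from −0.059 (without SYD library 3) to 0.79 when single libraries were left out. In SYD against control, TPM left 1 DEG (0.921% of all genes were DEGs with a higher level), and leaving out single libraries gave 3 to 6 (5.23% to 8.86% of all genes with a higher level). The number with an adjusted p under 0.05 (limma) was 0 with TPM, 0 with all 9 libraries in one fit, and 0 with the replicate block (0.417%, 0.396%, and 0% of all genes with a higher level), and 0 to 5 when single libraries were left out, where 0.396% to 12.2% of all genes passed with a higher level (1 without control library 1, 1 without control library 2, 0 without control library 3, and 5 without SYD library 3). Adamts1, Adamts6, and Adamts15 kept a positive fold change in all 17 alternatives. Their adjusted p-values in limma ranged over the 11 alternatives that keep every library from 0.00678 to 0.278, 0.00871 to 0.491, and 0.0182 to 0.200, and each was under 0.05 in 8 of them. Adamts4 lost its DEG call in 11 of 17 alternatives.

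The labels number the libraries 1 to 3 in each group. Correlations of same-numbered libraries' deviations from their group means ran from −0.267 to 0.194. In the 3 comparisons, 0, 2, and 0 of 6 libraries correlated best with their own number. These values show no sign of pairing, but so few libraries, which also differ in mitochondrial share, cannot settle whether the numbers pair them. With the number as a block, 3 members were DEGs in SYD against control, where 6.99% of all genes were with a higher level, and 0 members and 0% of all genes had an adjusted p under 0.05 in limma (Adamts1 0.0606, Adamts6 0.0613, and Adamts15 0.0775).

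Fold changes that turned sign in model against control were, with a pseudocount of 0.1, Adamts6 (−0.37), Adamts12 (−0.023), and Adamts17 (−0.42), and with 0.01, Adamts1 (−0.96), Adamts6 (−1.37), Adamts12 (−0.97), and Adamts17 (−1.38). With TPM they were Adamts1 (−1.16), Adamts4 (−0.19), Adamts9 (−2.01), Adamts2 (−2.66), Adamts6 (−1.18), Adamts12 (−0.74), and Adamts17 (−1.34). Scaling to non-mitochondrial reads turned Adamts17 (−0.048), and voom turned Adamts6 (−1.16), Adamts12 (−1.04), and Adamts17 (−1.31). In SYD against control, TPM turned Adamts5 (−1.13), Adamts9 (−0.57), Adamts2 (−0.56), Adamts14 (−0.62), and Adamts17 (−0.18). Leaving out single libraries gave ranges across 0 in model against control for Adamts1 (−0.11 to 1.61), Adamts9 (−0.051 to 0.46), Adamts2 (−0.24 to 0.67), Adamts6 (−0.37 to 0.58), Adamts12 (−0.31 to 0.73), and Adamts17 (−0.27 to 0.40), for Adamts4 in SYD against model (−0.20 to 1.20), and for Adamts5 in SYD against control (−0.049 to 0.28). Of 180 differences in shares, 18 turned sign without a single library. Their ranges over these refits, in percentage points, were in model against control −3.41 to 3.62 for Adamts9, −12.4 to 4.62 for Adamts2, −1.38 to 1.21 for Adamts6, −1.01 to 1.73 for Adamts12, and −1.98 to 0.980 for Adamts17. In SYD against model they were −3.96 to 11.7 for Adamts1, −5.08 to 1.52 for Adamts4, −6.02 to 1.01 for Adamts9, −0.778 to 2.19 for Adamts15, and −0.983 to 1.98 for Adamts17, and in SYD against control −0.939 to 0.539 for Adamts17.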
